A study of Mus musculus with 8 samples.

Results

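The nuclear pore is the gate between nucleus and cytoplasm, and 53 of the 12193 gene loci in each table encode its subunits or the factors that carry cargo through it. They were chosen by symbol, as nucleoporins, karyopherins (importins, exportins and transportins) and the proteins of the Ran cycle. That choice was made with earlier results of these data known. All 53 are protein-coding. All 53 passed the filter on low values. The cells were AtT-20, a mouse corticotrope tumour line that secretes ACTH made from Pomc. RNA-seq was done on an EGFR line given water or EGF and on a control line carrying Neo. The groups were the EGFR line in water (labelled 3 h), the EGFR line with EGF for 3 h, the EGFR line with EGF for 18 h and the Neo line in water (labelled 3 h), with 2 libraries in each of the 4 groups. EGF is a growth factor that acts through EGFR, a receptor tyrosine kinase. All groups share the AtT-20 background, and no Neo library received EGF, so a response to EGF without the introduced receptor was not measured. There is no water library at 18 h, so at that time EGF and time in culture cannot be told apart. Whether each line is 1 clone or a pool is not stated in the labels, nor whether the libraries of a group came from separate cultures, and p-values then measure only the spread between libraries, which may be technical.

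A pore is built from rings of repeated subunits. The outer ring (the Y complex) and the inner ring form the scaffold, membrane nucleoporins anchor it, channel nucleoporins fill the passage with unfolded repeats, and filaments and a basket reach into the cytoplasm and the nucleus. Importins bind cargo in the cytoplasm and release it when they meet Ran-GTP in the nucleus, and exportins bind cargo together with Ran-GTP and release it once the GTP is hydrolysed in the cytoplasm. The outer ring and several other subunits also act at kinetochores or the spindle in dividing cells, and pores are assembled again after each mitosis and during interphase.

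Values are FPKM, fragments mapped to a gene scaled for its length and the library total, as deposited, and n = 2 libraries a group throughout. Each change is a difference of mean log2(FPKM + 1), given with its standard error. A gene passed where limma's adjusted p, over the 10874 genes tested, was under 0.05. Each call was refitted under 17 alternatives, of which 8 left out 1 library each. Egfr, as a check of the lines, was 25.9 and 27.5 FPKM in EGFR water, 28.8 and 30.6 after 3 h, 31.9 and 30.3 after 18 h and 0.227 and 0.0663 in Neo water, which fits the labels. Of 6 corticotrope markers 4 had values, among them Pomc at 6981 to 8930 FPKM and the corticotrope factor Tbx19 at 83.8 to 112.6 FPKM in the 8 libraries, while Avpr1b and Crhr1 have no values here. The lists of markers for other pituitary lineages, fibroblasts, endothelium and blood have no values here. FPKM sums ran from 683834 to 808072 per library. These are bulk samples, in which fewer cells in a given state and less RNA per cell cannot be told apart.

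The pore and transport genes that changed between the 2 EGF times were all lower at 18 h than at 3 h. At 18 h against 3 h, 32 of 53 were lower, where 16.0% of all genes tested were lower and 17.7% higher. No member was higher by limma's adjusted p, and 1 was higher at an unadjusted p under 0.05. The 32 became 20 without 3 h library 2, and 17 without 18 h library 1 and 19 without 18 h library 2. Without any 1 of these libraries fewer of all genes passed too, and the members' median difference was −0.14, −0.13 and −0.14. With all libraries the median difference of the members was −0.14, and that of all genes 0.01. The libraries of the groups did not overlap, with 18 h below 3 h, for 42 members (33.1% of all genes), and with 18 h above 3 h for 6 (35.1%). The changes were small: the largest, that of Nup160, was a fold of 0.749.

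Against water, the members were more often higher at 3 h and more often lower at 18 h. At 3 h 14 members were higher (11.8% of all genes) and 3 lower (19.7%), with a median of 0.06 against −0.04 for all genes. At 18 h 3 members were higher (13.2% of all genes) and 17 lower (18.7%), with a median of −0.07 against −0.03. At 3 h the libraries lay apart and above water for 28 members (26.7% of all genes) and below for 9 (43.7%), and at 18 h above for 9 (28.8%) and below for 33 (43.0%). Both comparisons use the same EGFR water libraries, as does that of EGFR with Neo in water, so the 3 are not independent. Without EGFR water 1, EGFR water 2 or 3 h library 1, the 14 became 5, 4 and 6, and without EGFR water 1, EGFR water 2, 18 h library 1 or 18 h library 2 the 17 became 9, 10, 9 and 7. The 3 lower at 3 h became 1 without EGFR water 1 or 3 h library 1 and 5 without 3 h library 2, and the 3 higher at 18 h became 1 without EGFR water 1. Fewer of all genes passed too in the fits named for the 14 and the 17. The members' median was 0.06 to 0.08 at 3 h and −0.07 at 18 h in those fits. The counts also depended on how libraries were scaled. With every library brought to the same FPKM sum (common-sum scaling), 15 members were higher at 3 h and none lower (1346 and 440 of all genes tested). At 18 h, 2 members were higher and 6 lower with that scaling (1189 and 705). With the 9164 protein-coding genes alone, brought to a common sum, 30 members were higher and 2 lower at 3 h (24.3% and 14.6% of those genes) and 6 higher and 13 lower at 18 h (23.7% and 15.3%). With median-ratio scaling they were 22 and 2 at 3 h (1781 and 1551) and 4 and 13 at 18 h (1851 and 1618). At 18 h against 3 h, 25 members were lower with common-sum scaling (12.2% of all genes) and 33 with median-ratio scaling (17.8%). With protein-coding genes alone, 34 were lower there (21.9% of those genes). The part of members in the FPKM sum of protein-coding genes was 0.660% and 0.650% in EGFR water, 0.686% and 0.681% after 3 h, 0.636% and 0.630% after 18 h and 0.633% and 0.627% in Neo water.

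**Figure D1:**
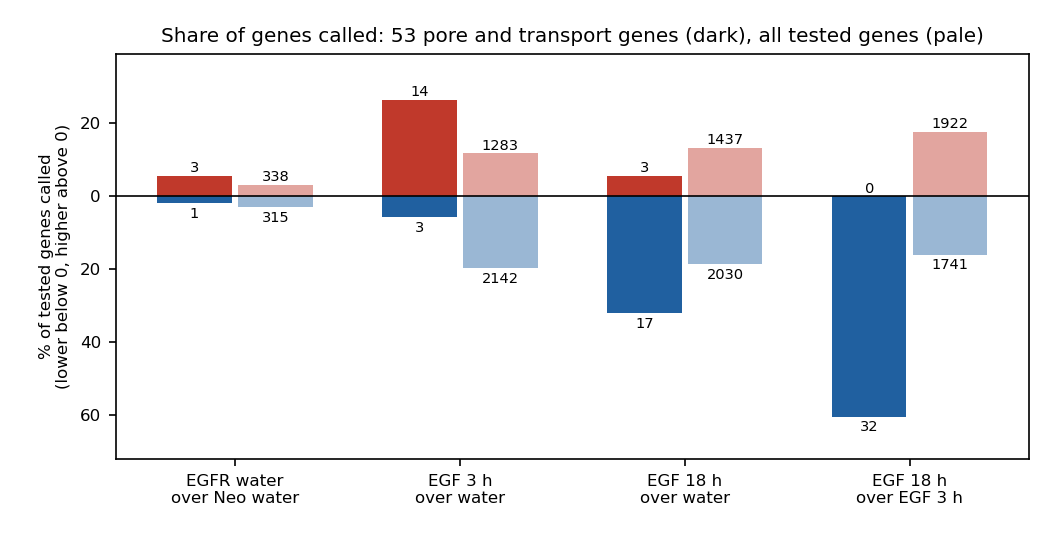
Percentage of the 53 pore and transport genes (dark bars) and of all 10874 genes tested (pale bars) that were higher (red, above 0) or lower (blue, below 0) at limma's adjusted p under 0.05, in each of the 4 comparisons, with the number of genes at each bar. The members' tallest bar is the 32 genes lower at 18 h than at 3 h of EGF.

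Genes of the proliferation list were also mostly lower at 18 h. At 3 h, with the values as deposited, their balance was opposite to that of the members. Their median change against water was −0.11 at 3 h, where that of the members was 0.06. At 18 h the medians were −0.23 and −0.07. The summed FPKM of its 21 genes was 2371 and 2353 in EGFR water, 2191 and 2307 after 3 h, 1989 and 2002 after 18 h and 2162 and 2140 in Neo water. Of the 21, 2 were higher (11.8% of all genes) and 7 lower (19.7%) at 3 h, 18 were lower at 18 h against water (18.7%), and 11 were lower at 18 h against 3 h (16.0%). The 7 lower at 3 h all failed with common-sum scaling, as did some of the 18 lower at 18 h. The 2 higher at 3 h, Mki67 and Rrm2, passed with that scaling, so the balance at 3 h depended on it. Rrm1, a subunit of ribonucleotide reductase, was 0.39 log2 units below water at 18 h (adjusted p = 8.64e-04 by limma). The part of proliferation in the results on pore genes was not tested.

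The promoters of 6 members are shown because these genes carry the patterns described next: Ranbp2 and Kpna4 rose at both times, Nup107, Nup37 and Nup160 of the outer ring fell at 18 h, and Ran is the most abundant member and fell at both times. Sequences are RefSeq's on GRCm38.p6, the 250 bases before each start, 5′ to 3′ on the gene's strand. Capitals mark matches, on either strand, to 6 motifs: the E-box CACGTG, the core of the NRF1 motif CGCATGCG, the ETS motif CCGGAAG, the STAT motif TTCNNNGAA, the CCAAT box CCAAT and the CHR motif TTTGAA.
Ranbp2 (chr10:58446602-58446851, plus strand): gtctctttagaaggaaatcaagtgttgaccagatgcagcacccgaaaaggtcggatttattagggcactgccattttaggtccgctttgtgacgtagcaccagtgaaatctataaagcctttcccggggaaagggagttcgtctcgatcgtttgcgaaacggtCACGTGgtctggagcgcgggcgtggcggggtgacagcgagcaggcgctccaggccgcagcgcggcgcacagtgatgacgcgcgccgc
Kpna4 (chr3:69127093-69127342, minus strand): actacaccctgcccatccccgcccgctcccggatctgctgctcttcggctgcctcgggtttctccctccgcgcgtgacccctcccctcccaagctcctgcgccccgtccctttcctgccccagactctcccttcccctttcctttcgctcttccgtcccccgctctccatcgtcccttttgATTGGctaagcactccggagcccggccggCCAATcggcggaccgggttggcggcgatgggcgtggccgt
Nup107 (chr10:117792706-117792955, minus strand): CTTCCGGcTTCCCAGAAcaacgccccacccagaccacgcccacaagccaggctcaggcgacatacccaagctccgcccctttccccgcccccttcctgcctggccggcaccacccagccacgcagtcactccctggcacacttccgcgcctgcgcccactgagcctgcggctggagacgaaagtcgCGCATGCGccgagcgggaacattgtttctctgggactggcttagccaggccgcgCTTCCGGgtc
Nup37 (chr10:88146742-88146991, plus strand): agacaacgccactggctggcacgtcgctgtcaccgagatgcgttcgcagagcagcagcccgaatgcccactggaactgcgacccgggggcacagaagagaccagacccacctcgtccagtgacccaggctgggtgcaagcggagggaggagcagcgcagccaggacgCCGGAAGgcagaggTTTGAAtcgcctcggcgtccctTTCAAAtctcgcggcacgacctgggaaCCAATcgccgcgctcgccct
Nup160 (chr2:90676965-90677214, plus strand): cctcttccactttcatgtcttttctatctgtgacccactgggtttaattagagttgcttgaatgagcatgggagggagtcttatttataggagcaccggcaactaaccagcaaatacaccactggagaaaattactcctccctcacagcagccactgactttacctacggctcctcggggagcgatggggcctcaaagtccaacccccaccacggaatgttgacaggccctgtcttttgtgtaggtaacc
Ran (chr5:129019906-129020155, plus strand): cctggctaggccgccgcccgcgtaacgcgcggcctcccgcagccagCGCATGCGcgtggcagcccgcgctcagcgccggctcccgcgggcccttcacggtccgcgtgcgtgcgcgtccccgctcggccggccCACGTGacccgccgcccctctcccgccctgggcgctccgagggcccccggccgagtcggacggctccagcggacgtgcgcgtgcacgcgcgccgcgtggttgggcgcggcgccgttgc
The RefSeq start of Ran and that of Kpna4 lie inside the deposited loci, so their windows run into those loci. Ran holds an NRF1 match and an E-box, Ranbp2 an E-box, and Kpna4 2 CCAAT boxes. Nup107 holds ETS, STAT, NRF1 and ETS matches in that order, and Nup37 an ETS match, 2 CHR matches and a CCAAT box. The window of Nup160, whose fall from 3 h was the largest, holds no match to any of the 6. No matches overlap in these windows.

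A RefSeq promoter was found for 44 of the 53 members, all but Cse1l, Kpna1, Kpna3, Kpna6, Nup35, Nup43, Nup85, Seh1l and Xpo4. A gene was counted if any of its promoters held the motif. The share of all promoters counts each promoter singly, so it is not the same measure as the shares of genes. The E-box was in 8 of the 44 (18.2%), in 10.3% of the other protein-coding genes tested and in 6.02% of all promoters of that length. The NRF1 core was in 5 (11.4%), namely Nup107, Nup50, Nup62, Ran and Xpo5, against 4.09% of the other genes tested and 1.55% of all promoters. The ETS motif was in 8 (18.2%), against 18.1% and 6.91%, and the CCAAT box in 20 (45.5%), against 42.0% and 33.8%. The CHR motif was in 12 (27.3%), against 12.0% and 16.0%. The STAT motif, whose factor the series' title names, was in 1 (2.27%), Nup107, against 6.81% and 7.02%. A match is a description of the letters, and nothing was measured here about binding.

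**Figure D2:**
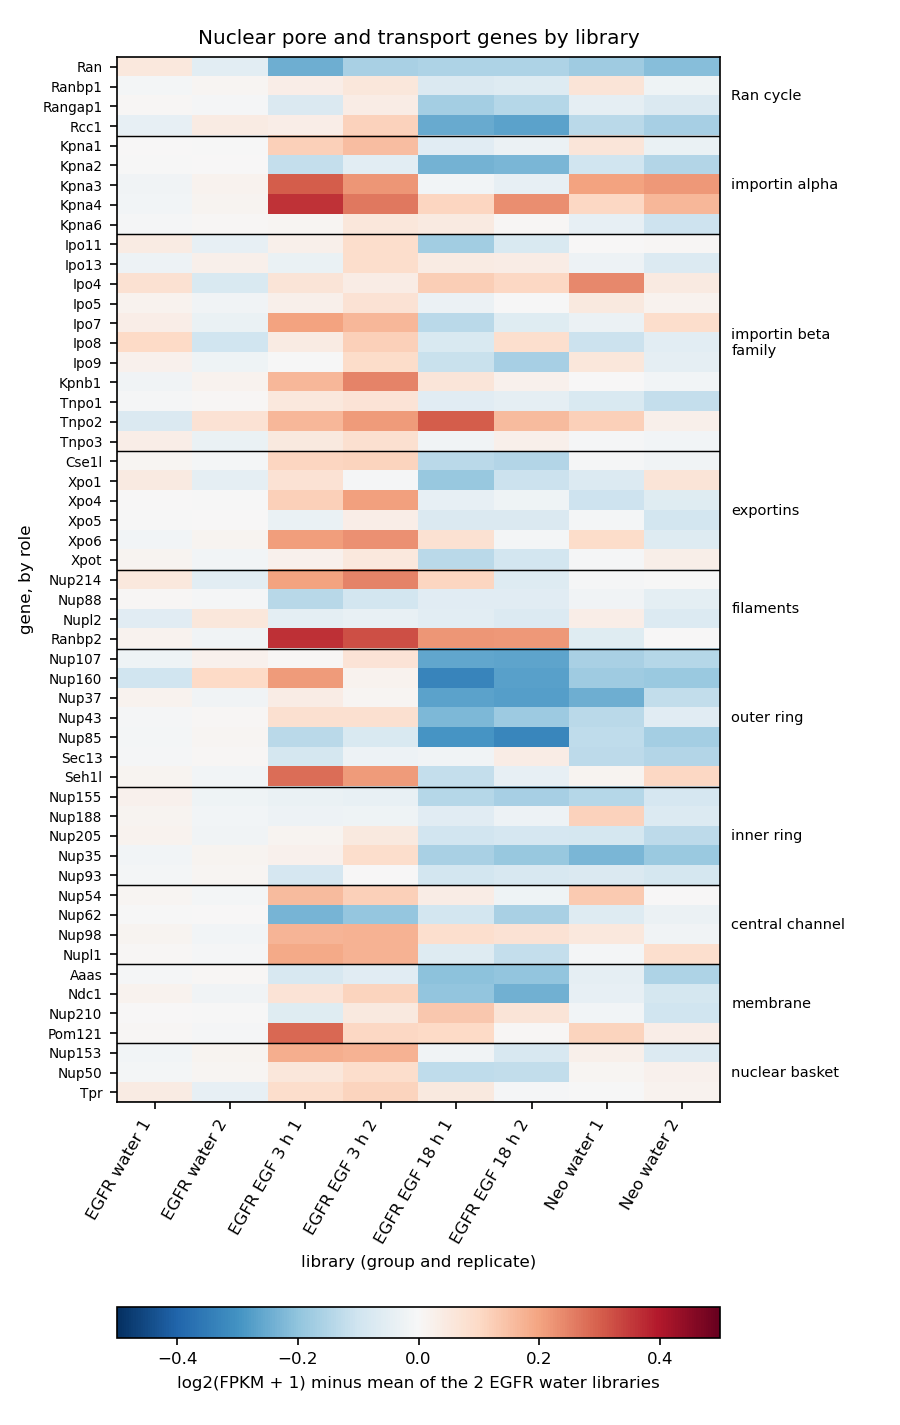
Each row is 1 of the 53 genes, grouped by role, and each column 1 of the 8 libraries; colour is log2(FPKM + 1) minus the mean of the 2 EGFR water libraries, blue below and red above. Ranbp2 and Kpna4 are red in all 4 EGF libraries, and most outer-ring genes are blue in both 18 h libraries.

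The Ran cycle gives transport its direction, and its genes fell or did not pass. Ran (chr5:129020069-129024323, plus strand), the small GTPase itself, was 633 and 587 FPKM in EGFR water, 515 and 545 after 3 h of EGF, 547 and 547 after 18 h and 538 and 525 in Neo water. Both EGF groups lay below EGFR water, and 18 h did not pass against 3 h (0.05, adjusted p = 0.498). Ran fell by 0.20 ± 0.0481 (SE) at 3 h (adjusted p = 0.0195) and by 0.16 at 18 h (0.0443). Rcc1, the chromatin-bound exchange factor that charges Ran with GTP, was 21.3 and 22.6 FPKM in EGFR water, 22.5 and 23.9 after 3 h of EGF, 18.3 and 18.1 after 18 h and 19.9 and 19.4 in Neo water. The 18 h libraries were the lowest of the 8, below water by 0.26 ± 0.0432 (0.00423) and below 3 h by 0.33 (0.00202). Rangap1, which triggers GTP hydrolysis in the cytoplasm, was 94.5 and 93.9 FPKM in EGFR water, 89.7 and 96.8 after 3 h of EGF, 83.6 and 85.4 after 18 h and 91.3 and 89.7 in Neo water. It fell by 0.16 at 18 h against water (0.0241) and by 0.14 against 3 h (0.0342). Ranbp1, a Ran-GTP binding cofactor of that step, was 252 and 255 FPKM in EGFR water, 260 and 264 after 3 h of EGF, 242 and 243 after 18 h and 266 and 250 in Neo water, and it passed at 18 h against 3 h (−0.11, 0.0482).

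The calls on Rcc1 passed under all 17 alternatives. Ran did not pass at 3 h without EGFR water 1 or 3 h library 1, with common-sum scaling or with only the 2 groups fitted (adjusted p 0.0516 to 0.271). Ran did not pass at 18 h without either Neo library, EGFR water 1 or either 18 h library, nor under 4 other settings (0.0502 to 0.27). Rangap1 did not pass at 18 h against water without any 1 of the EGFR water and 18 h libraries or with common-sum scaling (0.0709 to 0.227). Against 3 h it did not pass without either EGFR water library, 3 h library 2 or either 18 h library (0.0619 to 0.152), nor under 3 other settings. Ranbp1 did not pass without any 1 of the 6 EGFR-line libraries (0.0858 to 0.172) or under 4 other settings. Part of Ran's and Ranbp1's transcripts matches other loci at 95% identity or more over at least 200 bases, 26.9% of Ran (Gm13461) and 26.1% of Ranbp1 (Gm49776), so the source of those reads is uncertain.

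Importin alpha adaptors bind the classical nuclear localisation signal, and their members moved in opposite directions. Kpna4 (chr3:69067149-69127113, minus strand) was 24.6 and 25.0 FPKM in EGFR water, 32.2 and 30.1 after 3 h of EGF, 26.9 and 29.4 after 18 h and 26.8 and 28.0 in Neo water. All 4 EGF libraries lay above EGFR water, by 0.31 ± 0.0526 at 3 h (adjusted p = 0.00557) and 0.17 at 18 h (0.0438). Kpna3, of the same subfamily as Kpna4, was 8.54 and 8.79 FPKM in EGFR water, 10.9 and 10.3 after 3 h of EGF, 8.57 and 8.38 after 18 h and 10.1 and 10.2 in Neo water. Its 3 h libraries were the highest of the EGFR line, 0.26 ± 0.042 above water (0.00478), and lower at 18 h than at 3 h by 0.29 (0.00301). Kpna3 was also lower in EGFR water than in Neo water (−0.21, 0.0365).

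Kpna2, the most abundant of the adaptors and one that is rich in dividing cells, was 187 and 187 FPKM in EGFR water, 172 and 180 after 3 h of EGF, 159 and 160 after 18 h and 174 and 169 in Neo water. It fell at 18 h, by 0.23 ± 0.0348 against water (0.00264) and by 0.15 against 3 h (0.0173), with both 18 h libraries below the other 6. Kpna1 was 0.14 above water at 3 h (0.0337) and 0.18 lower at 18 h than at 3 h (0.0118). Kpna6 did not pass in any comparison, and its log2 changes against water were 0.03 at both times. Kpna5 and Kpna7 were not analysed here. Of Kpna2's transcript, 95.8% matches other loci (Gm10184, Gm10259 and Gm12919), so its reads may be shared with them.

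The calls on Kpna3 and Kpna4 at 3 h, on Kpna2 at 18 h against water and on Kpna3 at 18 h against 3 h passed under all 17 alternatives. Kpna4 at 18 h did not pass without either Neo library, either EGFR water library or 18 h library 2, nor under 4 other settings (adjusted p 0.0527 to 0.211). Kpna2 at 18 h against 3 h did not pass without 3 h library 2 or either 18 h library, or with only the 2 groups fitted (0.0516 to 0.0887). Kpna1 at 3 h did not pass without any 1 of the 6 EGFR-line libraries or with the replicate number as a block (0.0532 to 0.135), and at 18 h against 3 h not without 18 h library 1 (0.0697).

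The importin beta family holds the receptors that pass through the channel, and the 2 that passed at 3 h rose. Kpnb1, importin beta itself and the partner of the alpha adaptors, was 106 and 109 FPKM in EGFR water, 121 and 128 after 3 h of EGF, 112 and 109 after 18 h and 107 and 106 in Neo water. Both 3 h libraries were the highest of the 8, 0.21 ± 0.0371 above water (adjusted p = 0.00699), and 18 h was 0.17 below 3 h (0.0136). Ipo7, an import receptor for ribosomal proteins among others, was 66.6 and 63.6 FPKM in EGFR water, 74.9 and 73.1 after 3 h of EGF, 59.2 and 62.3 after 18 h and 63.8 and 69.2 in Neo water. It was 0.18 above water at 3 h (0.0278) and 0.28 lower at 18 h than at 3 h (0.00553), and its 18 h libraries did not pass against water (−0.10, 0.164). Tnpo2, a transportin for RNA-binding proteins, was 11.5 and 12.9 FPKM in EGFR water, 13.8 and 14.3 after 3 h of EGF, 15.3 and 13.7 after 18 h and 13.3 and 12.4 in Neo water. It passed at 18 h against water (0.23 ± 0.068, 0.0375), where the groups did not overlap, and its 3 h and 18 h libraries did.

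Ipo9, which imports histones, was 35.8 and 34.8 FPKM in EGFR water, 35.2 and 37.7 after 3 h of EGF, 32.6 and 31.3 after 18 h and 36.8 and 34.2 in Neo water, and it fell by 0.18 at 18 h against 3 h (0.0268). Ipo11 and Tnpo1 fell by 0.18 (0.0246) and 0.11 (0.0267) in the same comparison. The other 5 receptors, Ipo4, Ipo5, Ipo8, Ipo13 and Tnpo3, did not pass in any comparison. All 11 receptors had positive log2 changes at 3 h, from 0.03 to 0.21, as did 4301 of the 10874 genes tested. Of the 11, 2 were higher at 3 h (11.8% of all genes) and 5 lower at 18 h than at 3 h (16.0%). Uncertain sources touch Ipo4, with 60.1% of its transcript matching Gm49378, and Tnpo1, with 31.3% matching Gm6493.

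Ipo7's fall from the 3 h level passed under all 17 alternatives, and Kpnb1 failed once in each comparison, at 3 h without EGFR water 1 (adjusted p = 0.0545) and at 18 h against 3 h without 18 h library 2 (0.0805). Ipo7 at 3 h did not pass without any 1 of the EGFR water and 3 h libraries, nor under 2 other settings (0.0529 to 0.148). Tnpo2 did not pass without EGFR water 1, either 3 h library or 18 h library 1, nor under 3 other settings (0.0533 to 0.196). Ipo9 did not pass without 3 h library 2, either 18 h library or the filter (0.0528 to 0.13), Ipo11 not without 3 h library 2 or 18 h library 1 (0.0999 to 0.14), and Tnpo1 not without any 1 of the 6 EGFR-line libraries or under 2 other settings (0.0553 to 0.132).

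Of 6 exportins 3 rose at 3 h, 2 were lower than water at 18 h and 5 were lower at 18 h than at 3 h, where the shares of all genes tested were 11.8%, 18.7% and 16.0%. Cse1l, the exportin that returns importin alpha to the cytoplasm, was 44.2 and 43.5 FPKM in EGFR water, 47.4 and 47.4 after 3 h of EGF, 39.9 and 39.5 after 18 h and 43.7 and 43.4 in Neo water. Its 3 h libraries were the highest and its 18 h libraries the lowest of the 8. It was 0.11 ± 0.028 above water at 3 h (adjusted p = 0.0248), 0.14 below water at 18 h (0.00893) and 0.25 lower at 18 h than at 3 h (0.00121). Xpo1 (CRM1), the exportin of leucine-rich export signals, was 96.9 and 90.8 FPKM in EGFR water, 98.7 and 93.5 after 3 h of EGF, 82.1 and 86.9 after 18 h and 89.5 and 98.0 in Neo water. It did not pass against water at either time (0.03 and −0.15) and passed at 18 h against 3 h (−0.18 ± 0.0578, 0.0456), where the groups did not overlap.

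Xpo6, which exports actin with profilin, was 17.1 and 17.4 FPKM in EGFR water, 20.1 and 20.4 after 3 h of EGF, 18.2 and 17.1 after 18 h and 18.5 and 16.4 in Neo water. Xpo4, which carries eIF5A and Smad3 among others, was 8.18 and 8.17 FPKM in EGFR water, 8.96 and 9.59 after 3 h of EGF, 7.92 and 8.05 after 18 h and 7.55 and 7.81 in Neo water. Both were above water at 3 h, by 0.22 (0.0246) and 0.16 (0.0294), and lower at 18 h than at 3 h by 0.19 each (0.0402 and 0.015). Xpot, the tRNA exportin, was 46.8 and 48.3 FPKM after 18 h, against 52.0 and 51.0 FPKM in EGFR water (−0.11, 0.0342), and also lower than at 3 h (−0.15, 0.0119), and 48.1% of its transcript matches Gm7389. Xpo5, which exports microRNA precursors, did not pass in any comparison (26.7 to 29.2 FPKM), and Xpo7 was not analysed here.

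Cse1l's call at 18 h against 3 h passed under all 17 alternatives. At 3 h against water it did not pass without either EGFR water library or 3 h library 1, nor under 2 other settings (adjusted p 0.0503 to 0.144), and at 18 h against water not without EGFR water 1, either 18 h library or with common-sum scaling (0.0508 to 0.237). Xpo1 did not pass without any 1 of the 6 EGFR-line libraries (0.0558 to 0.204) or under 4 other settings. Xpo6 at 3 h did not pass without any 1 of the EGFR water and 3 h libraries or without the filter (0.0533 to 0.108), and at 18 h against 3 h not without any 1 of the 6 EGFR-line libraries (0.0631 to 0.187) or without the filter. Xpo4 at 3 h did not pass without either EGFR water library or 3 h library 2, or with only the 2 groups fitted (0.0606 to 0.117), and at 18 h against 3 h not without 3 h library 2 or either 18 h library (0.0589 to 0.0809). Xpot did not pass at 18 h against water without any 1 of the EGFR water and 18 h libraries, nor under 4 other settings (0.0507 to 0.458), and against 3 h not without 18 h library 1 or with common-sum scaling (0.0613 to 0.0809).

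The cytoplasmic filaments hold the member with the largest rise. Ranbp2 (chr10:58446852-58494155, plus strand), also called Nup358, is the main filament protein, a SUMO ligase and a docking site for RanGAP1. It was 62.2 and 60.8 FPKM in EGFR water, 79.4 and 77.2 after 3 h of EGF, 71.7 and 71.6 after 18 h and 59.0 and 61.5 in Neo water. All 4 EGF libraries lay above the 4 water libraries of both lines. Ranbp2 was above EGFR water by 0.34 ± 0.0338 at 3 h (adjusted p = 7.27e-04) and 0.22 at 18 h (0.00309), and 18 h was 0.13 below 3 h (0.0265). Nup214, the filament docking site of the mRNA export helicase, was 9.88 and 9.11 FPKM in EGFR water, 11.1 and 11.4 after 3 h of EGF, 10.3 and 9.04 after 18 h and 9.43 and 9.47 in Neo water. It passed at 3 h (0.22, 0.0334) and was lower at 18 h than at 3 h (−0.20, 0.0431). Nup88, the partner of Nup214, was 59.2 and 58.9 FPKM in EGFR water, 53.6 and 55.3 after 3 h of EGF, 56.8 and 56.7 after 18 h and 58.4 and 57.1 in Neo water, and fell at 3 h (−0.12, 0.0275), so the partners moved in opposite directions there. Nupl2 did not pass in any comparison (7.47 to 8.24 FPKM).

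Ranbp2's calls against water passed under all 17 alternatives at both times, and its fall from 3 h did not pass without 3 h library 1 or either 18 h library, nor under 2 other settings (adjusted p 0.0562 to 0.108). Nup214 at 3 h did not pass without any 1 of the EGFR water and 3 h libraries or without the filter (0.0573 to 0.169), and at 18 h against 3 h passed only without 18 h library 1 among the fits that left out a library (0.0507 to 0.21 in the others), and failed under 2 other settings. Nup88 did not pass without either EGFR water library, 3 h library 1 or either 18 h library, nor under 4 other settings (0.0508 to 0.718).

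Outer-ring genes fell at 18 h. Of the 7 measured genes 5 were lower at 18 h than in water and 6 lower than at 3 h, with medians of −0.26 and −0.30, where 18.7% and 16.0% of all genes tested were lower. Nup107 (chr10:117750624-117792705, minus strand), a stem subunit, was 48.4 and 50.0 FPKM in EGFR water, 49.4 and 51.6 after 3 h of EGF, 40.9 and 40.8 after 18 h and 43.8 and 44.4 in Neo water. The 18 h libraries were the lowest of the 8, 0.26 ± 0.0339 below water (adjusted p = 0.0014) and 0.30 below 3 h (0.0013). Nup85 (chr11:115564434-115583985, plus strand), of the short arm, was 103 and 104 FPKM in EGFR water, 94.5 and 98.4 after 3 h of EGF, 84.4 and 82.6 after 18 h and 94.8 and 92.0 in Neo water. Nup85 fell at 18 h by 0.31 ± 0.0338 against water (6.49e-04) and by 0.21 against 3 h (0.00462), with 18 h below all other libraries.

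Nup160 (chr2:90677215-90736328, plus strand), of the long arm, was 13.5 and 15.6 FPKM in EGFR water, 17.0 and 14.7 after 3 h of EGF, 11.3 and 11.9 after 18 h and 12.7 and 12.6 in Neo water. Its 18 h libraries were below the other 6, and its standard error was the largest of the ring. Nup160 fell at 18 h by 0.30 ± 0.0808 against water (0.0274) and by 0.42 against 3 h (0.00854). Nup37, which binds Nup160, was 24.9 and 24.4 FPKM in EGFR water, 25.3 and 24.9 after 3 h of EGF, 20.3 and 20.2 after 18 h and 20.6 and 22.5 in Neo water, and 18 h was lower than water by 0.27 (0.00369) and than 3 h by 0.30 (0.00329). Nup43, of the short arm, was 38.4 and 38.7 FPKM in EGFR water, 40.8 and 40.8 after 3 h of EGF, 32.9 and 33.9 after 18 h and 35.0 and 37.0 in Neo water, and 18 h was lower than water by 0.20 (0.0053) and than 3 h by 0.28 (0.00186).

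The 2 remaining subunits have roles beyond the ring. Seh1l, shared with the GATOR complex of amino-acid sensing, was 18.3 and 17.9 FPKM in EGFR water, 22.2 and 21.1 after 3 h of EGF, 16.6 and 17.6 after 18 h and 18.3 and 19.5 in Neo water. It was the ring's one gene to rise at 3 h (0.25 ± 0.0466, adjusted p = 0.00882), and it fell by 0.32 at 18 h against 3 h (0.00295). Sec13, shared with GATOR and the COPII coat of secretory vesicles, was 146 and 147 FPKM in EGFR water, 138 and 144 after 3 h of EGF, 145 and 151 after 18 h and 134 and 132 in Neo water. It did not pass in any comparison and did not share the fall at 18 h (0.01 against water, 0.07 against 3 h). Nup133 was not analysed here.

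The calls on Nup107 and Nup85 at 18 h against water, and on Nup107, Nup160, Nup37, Nup43, Nup85 and Seh1l at 18 h against 3 h, passed under all 17 alternatives. At 18 h against water, Nup37 and Nup43 failed with common-sum scaling alone (adjusted p = 0.0637 and 0.136), and Nup160 did not pass without EGFR water 2 or either 18 h library, nor under 3 other settings (0.0553 to 0.139). Seh1l at 3 h did not pass without EGFR water 2 or 3 h library 1 (0.0540 to 0.0564).

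**Figure D3:**
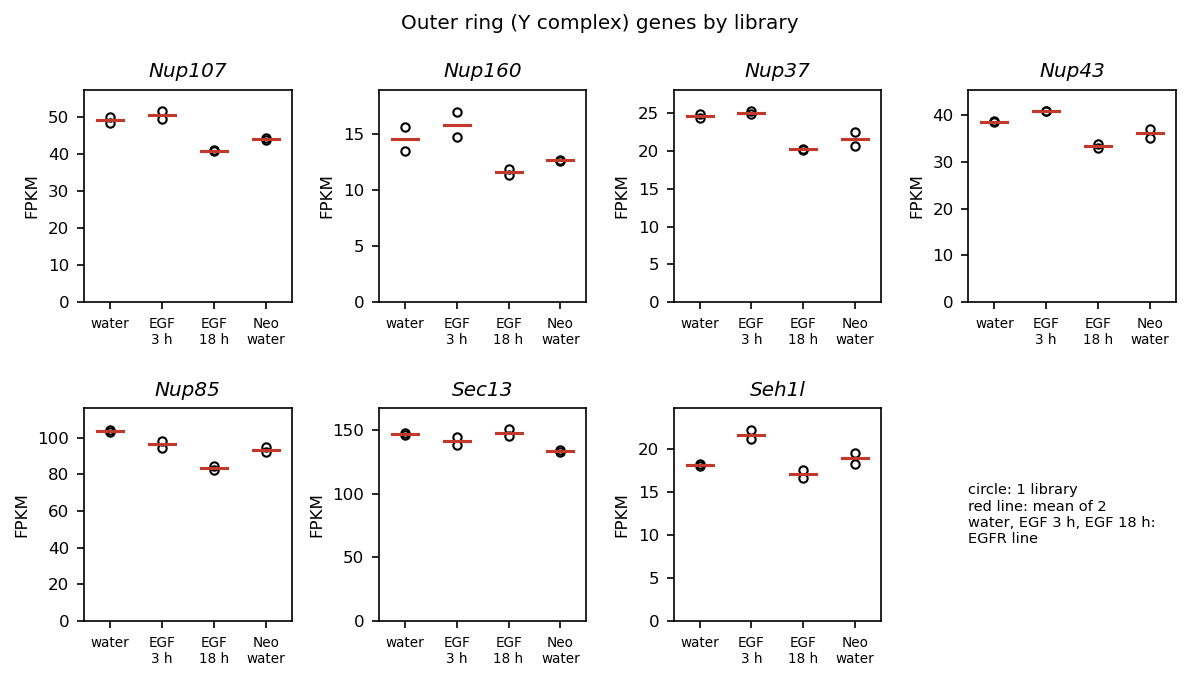
FPKM of the 7 outer-ring genes in EGFR water, after 3 h and 18 h of EGF, and in Neo water; circles are single libraries, red lines the mean of 2, and each axis starts at 0. Nup107, Nup160, Nup37, Nup43, Nup85 and Seh1l have both 18 h libraries below the EGFR water libraries, and Sec13 does not. The difference of Seh1l did not pass.

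Of 5 inner-ring genes 2 were lower at 18 h than in water (18.7% of all genes) and 3 lower than at 3 h (16.0%). Nup35, which bends the pore membrane, was 27.8 and 28.4 FPKM in EGFR water, 28.5 and 29.95 after 3 h of EGF, 25.0 and 24.5 after 18 h and 23.8 and 24.6 in Neo water. Nup35 was lower at 18 h by 0.18 ± 0.0368 against water (adjusted p = 0.0108) and by 0.23 against 3 h (0.00419), and higher in EGFR water than in Neo water by 0.21 (0.0258). Nup155, a linker subunit, was 18.8 and 18.5 FPKM after 18 h, against 21.1 and 20.5 FPKM in EGFR water (−0.16, 0.0151), and −0.12 against 3 h (0.0351). Nup205, the ring's most abundant gene, was 42.9 and 41.9 FPKM in EGFR water, 42.9 and 43.9 after 3 h of EGF, 39.6 and 40.0 after 18 h and 39.8 and 38.7 in Neo water. It passed at 18 h against 3 h (−0.12, 0.0246). Nup93 and Nup188 did not pass in any comparison.

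Nup35's fall from 3 h passed under all 17 alternatives, and its fall from water failed without EGFR water 2 or 18 h library 2 or with common-sum scaling (adjusted p 0.0644 to 0.176). Nup155 did not pass against water without EGFR water 1 or either 18 h library, nor under 2 other settings (0.0616 to 0.249), and against 3 h not without any 1 of the 6 EGFR-line libraries or under 3 other settings (0.0568 to 0.153). Nup205 did not pass without 3 h library 2 or either 18 h library, nor under 2 other settings (0.059 to 0.118).

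In the central channel the directions differed between genes at 3 h. Nup62, the core channel protein with FG repeats, was 53.9 and 53.9 FPKM in EGFR water, 45.7 and 47.0 after 3 h of EGF, 50.6 and 48.0 after 18 h and 51.5 and 52.8 in Neo water. All EGF libraries lay below all water libraries, by 0.21 ± 0.0357 at 3 h (adjusted p = 0.00548) and 0.13 at 18 h (0.0322). Nup98, whose repeats form the permeability barrier, was 20.3 and 19.9 FPKM in EGFR water, 22.8 and 22.8 after 3 h of EGF, 21.4 and 21.2 after 18 h and 20.9 and 19.9 in Neo water, and the 3 h libraries were the highest, 0.17 above water (0.0109). Nupl1 (Nup58), which binds Nup62, was 22.9 and 22.7 FPKM in EGFR water, 26.1 and 25.8 after 3 h of EGF, 21.7 and 20.9 after 18 h and 22.6 and 24.2 in Neo water. It was 0.18 above water at 3 h (0.0151) and 0.27 lower at 18 h than at 3 h (0.00321), and 55.4% of its transcript lies in other annotated genes (Gm49336 and Atp8a2). Nup54, the third partner, did not pass (0.14 at 3 h, 0.0643), and 53.3% of its transcript matches Gm15790, so its source is uncertain too.

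Nup62 at 3 h failed with common-sum scaling alone (adjusted p = 0.194), and at 18 h it did not pass without either EGFR water library or 18 h library 2, nor under 4 other settings (0.0526 to 0.375). Nup98 did not pass without EGFR water 2 (0.0743). Nupl1 at 3 h did not pass without either EGFR water library or 3 h library 1 (0.0687 to 0.0817), and its fall from 3 h passed under all 17 alternatives.

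Among membrane nucleoporins and their partners, Ndc1 was the clearest. Ndc1, which is needed to insert pores into the envelope, was 20.4 and 19.9 FPKM in EGFR water, 21.1 and 21.8 after 3 h of EGF, 17.4 and 16.9 after 18 h and 19.5 and 18.9 in Neo water. The 18 h libraries were the lowest, 0.22 ± 0.0368 below water (adjusted p = 0.00449) and 0.31 below 3 h (0.00156), and both calls passed under all 17 alternatives. Aaas (ALADIN), which Ndc1 anchors, was 13.7 and 13.9 FPKM in EGFR water, 13 and 13.2 after 3 h of EGF, 11.8 and 11.9 after 18 h and 13.4 and 12.3 in Neo water. Aaas was lower at 18 h than in water by 0.20 (0.0118) and than at 3 h by 0.13 (0.0496). Without any 1 of the EGFR water and 18 h libraries the call against water failed (0.0537 to 0.0655), and that against 3 h failed without any 1 of the 6 EGFR-line libraries (0.0806 to 0.168) and under 4 other settings. Nup210, the most abundant gene here, was 38.0 and 37.8 FPKM in EGFR water, 36.2 and 39.2 after 3 h of EGF, 41.7 and 39.6 after 18 h and 37.5 and 35.2 in Neo water, and it did not pass in any comparison. Pom121 had the lowest mean level of all 53 (4.55 FPKM) and did not pass either.

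The nuclear basket faces chromatin. Nup153, which docks importins and exportins, was 30.1 and 30.7 FPKM in EGFR water, 34.6 and 34.5 after 3 h of EGF, 30.03 and 28.7 after 18 h and 31.0 and 29.0 in Neo water. The 3 h libraries were the highest, 0.18 ± 0.0409 above water (adjusted p = 0.0173), and 18 h was 0.23 below 3 h (0.00655). Nup50, a cofactor of importin release, was 21.7 and 22.0 FPKM in EGFR water, 22.8 and 23.3 after 3 h of EGF, 19.9 and 20.03 after 18 h and 22.0 and 22.2 in Neo water. The 18 h libraries were the lowest, 0.12 below water (0.0202) and 0.20 below 3 h (0.00384). Tpr, which forms the basket's filaments, was 47.3 and 44.5 FPKM in EGFR water, 48.9 and 49.7 after 3 h of EGF, 47.5 and 45.7 after 18 h and 45.8 and 46.5 in Neo water, and it did not pass in any comparison (0.10 at 3 h, 0.087).

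Both falls from 3 h, of Nup153 and Nup50, passed under all 17 alternatives. Nup153 at 3 h did not pass without either EGFR water library or 3 h library 1 (adjusted p 0.0682 to 0.0946), and Nup50 at 18 h against water not without any 1 of the EGFR water and 18 h libraries or under 2 other settings (0.084 to 0.334).

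**Figure D4:**
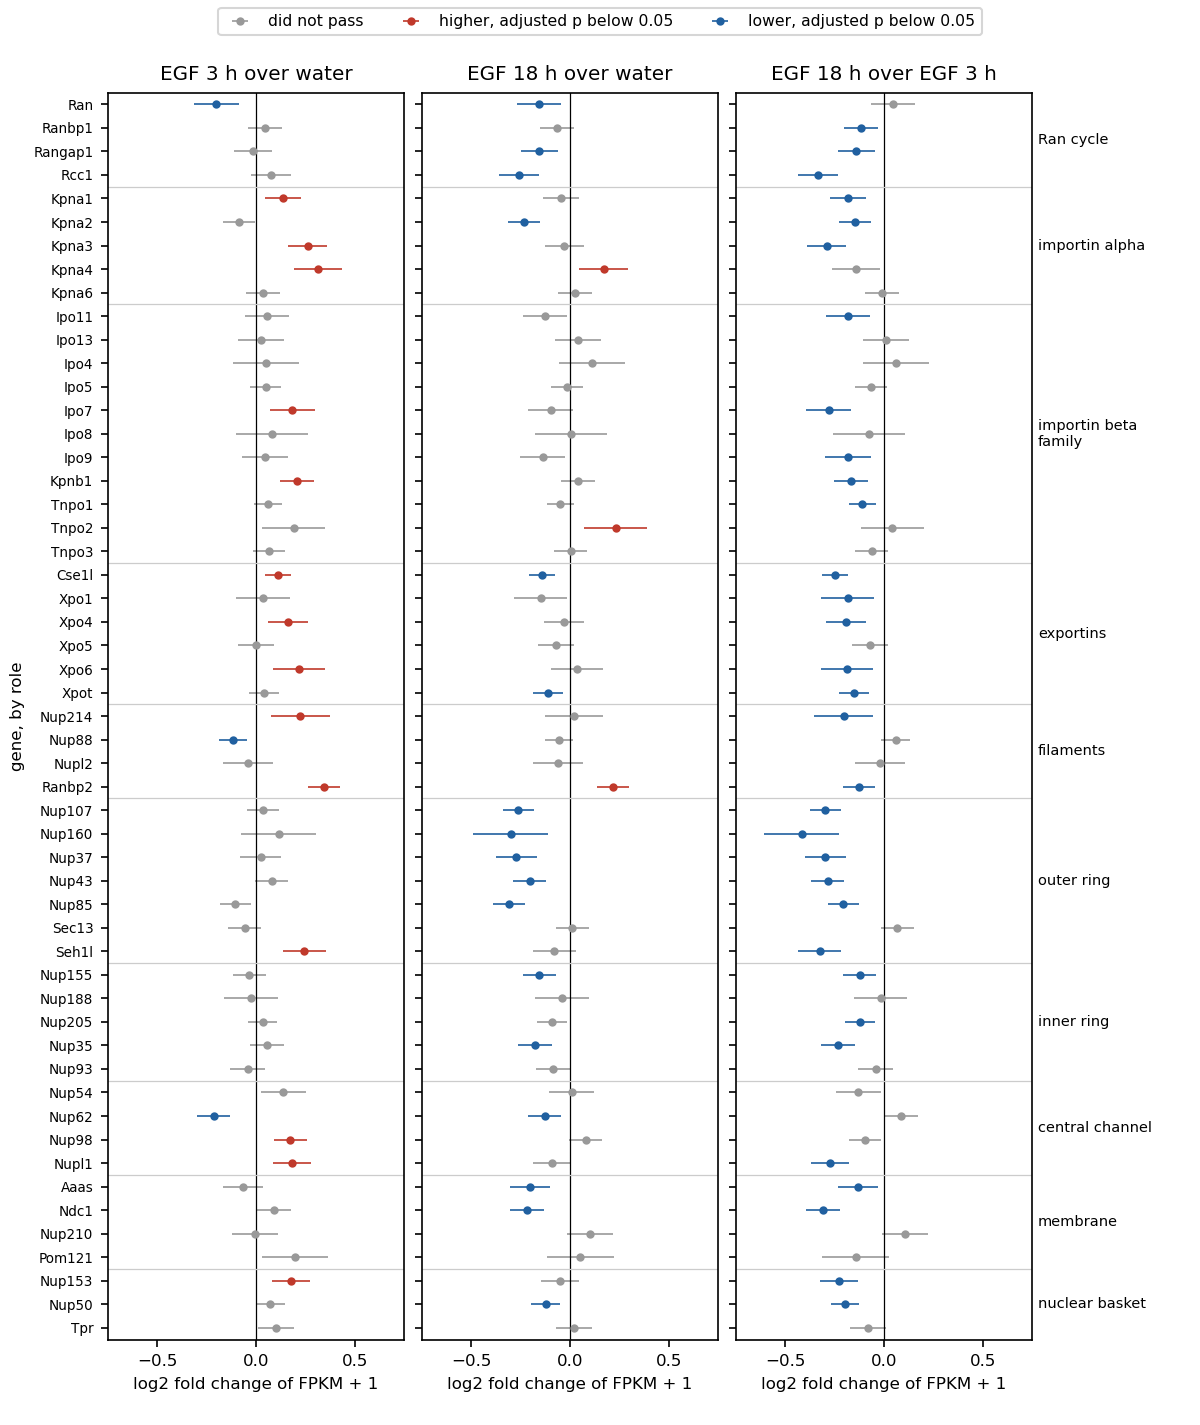
Log2 fold change of FPKM + 1 for each of the 53 genes, with its 95% interval from limma, at 3 h of EGF against water, 18 h against water and 18 h against 3 h; red and blue points passed at an adjusted p under 0.05, higher and lower, and grey ones did not. The right panel shows 32 blue points and no red one.

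Set apart by kind, pore subunits and transport factors gave these counts. Of 27 subunits 6 were higher and 2 lower at 3 h, 1 higher and 11 lower at 18 h, and 16 lower at 18 h than at 3 h. Of 26 transport factors 8 were higher and 1 lower at 3 h, 2 higher and 6 lower at 18 h, and 16 lower at 18 h than at 3 h. The median differences between 18 h and 3 h were −0.13 and −0.14. Of all genes tested, 11.8% were higher and 19.7% lower at 3 h, 13.2% higher and 18.7% lower at 18 h, and 16.0% lower at 18 h than at 3 h. Whether the 2 kinds differ was not tested.

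In water, few of these genes passed between the EGFR line and the Neo line. Nup35, Nup107 and Nup85 were higher (3 of 53, where 3.11% of all genes were), by 0.21, 0.15 and 0.15, and Kpna3 was lower (1 of 53, where 2.90% were). The adjusted p-values, by limma, were 0.0258, 0.0452, 0.048 and 0.0365. Each of the 4 calls failed when any 1 of the Neo water, EGFR water or 18 h libraries was left out (0.0503 to 0.233). EGFR water lay above Neo water without overlap for 23 members (33.5% of all genes) and below for 5 (24.2%), and the medians were 0.02 for members and 0.01 for all genes. The outer ring holds 2 of the 3 higher calls, Nup107 and Nup85. Of its 7 genes, EGFR water lay above Neo water for 6 and below for 1, with a median of 0.15. Of the proliferation list, 7 of 21 were higher in EGFR water; its part in these calls was not tested.

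Members differed in level by over 2 orders of magnitude. Ran averaged 555 FPKM over the 8 libraries, Ranbp1 254, Kpna2 173, Sec13 142 and Kpnb1 112 FPKM. At the low end stood Xpo4 at 8.28, Nupl2 at 7.69 and Pom121 at 4.55 FPKM.

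Other factors that work with the pore lie outside the symbol rule. Of 18 measured of 20 other pore and transport factors, 3 were higher (11.8% of all genes) and 1 lower (19.7%) at 3 h, 2 lower at 18 h (18.7%) and 6 lower at 18 h than at 3 h (16.0%). Nmd3, the export adaptor of the large ribosomal subunit, was 0.22 above water at 3 h (adjusted p = 0.00471 by limma) and 0.24 lower at 18 h than at 3 h (0.00306). Ddx19b, an mRNA export helicase at the filaments, was 0.24 above water at 3 h (0.00587). Gle1, which activates that helicase, was 0.30 below water at 18 h (0.0011), and these calls passed under all 17 alternatives. The remaining calls counted here failed under at least 1 alternative, except that on Senp2 at 18 h against 3 h.

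Of 17 measured of 19 genes of TREX and TREX-2, which couple mRNA processing to export, 2 were higher (11.8% of all genes) and 2 lower (19.7%) at 3 h, 9 lower at 18 h (18.7%) and 5 lower at 18 h than at 3 h (16.0%). Zc3h11a rose by 0.39 at 3 h (adjusted p = 0.00259 by limma) and was 0.29 lower at 18 h than at 3 h (0.00705). Thoc1, of the THO core, rose by 0.24 at 3 h (0.00462) and was 0.42 lower at 18 h than at 3 h (5.51e-04). These calls on Zc3h11a and Thoc1 passed under all 17 alternatives. The 9 lower at 18 h against water, and the 2 lower at 3 h, all failed with common-sum scaling. All of the 9 but Thoc3 also failed in fits that left out 1 library. At 18 h against 3 h, Alyref, Cetn2 and Thoc3 each failed under at least 1 alternative.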

How the data were processed

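RNA was measured in 8 AtT-20 libraries, 2 in each of 4 groups named by the labels. The authors deposited FPKM for 12193 loci per library, and these values were used as deposited. The tools listed are TopHat2 2.0.8, Trimmomatic 0.22, HTSeq 0.5.4 and an unversioned DESeq, and the build is mm10, per the submitters' processing notes. Not given in the sources used here are strandedness, depth and the program behind the FPKM values. Low values step only weakly in whole fragments, with a best estimate of 55.2 to 65.0 M fragments per library. FPKM are relative to the library total, so a change in abundant RNAs moves all other values.

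Genes with FPKM of at least 1 in at least 2 of 8 libraries (10874) were tested on log2(FPKM + 1), pseudocount 1, with limma 3.58.1 (trend, R 4.3.3), all 4 groups in 1 fit, 4 residual and 3.29 prior degrees of freedom, Benjamini-Hochberg within each of the 4 comparisons and a threshold of 0.05. The fit was tested on simulated data in which 200 of 10874 genes changed at 18 h against water, fewer than were called here. It recovered 66.0% of 1.25-fold, 92.0% of 1.5-fold and 97.5% of 2-fold changes, and 2.94% to 3.47% of calls were wrong. Changes of 1.25-fold were thus often missed there, so a member that did not pass may still have changed. Alternatives were another pseudocount (0.1), no filter, an FPKM filter of 5, median-ratio and common-sum scaling, protein-coding genes alone brought to a common sum, a replicate block, a fit to only the 2 groups compared, no mean-variance trend, a threshold of 0.01 and leaving out each library in turn. The rule for named genes gave values for up to 10 called members per comparison and direction by size of change with mean FPKM of at least 5, the most abundant member of each role, and 12 members always; others are given by range or fold change. Genes of like pattern, which that rule also asks for, are not given, since 4 group means are too few for a correlation. The members, lists and tests were chosen with earlier results of these data known.

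Coordinates are 1-based on mm10: start plus 1 and end equal the GENCODE M21 gene for 37 of the 53 members. Transcripts were aligned to each other with minimap2 2.31. A member's source was called uncertain where at least 20% of its transcript matched other loci, or of its exon bases lay in other genes. Sequences are RefSeq's, from GRCm38.p6.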

Additional observations from a re-analysis of the deposited data

Results flagged for a closer look

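Of the 53 genes, 32 differed between the EGF times by limma's direct test of 18 h against 3 h. Of all genes tested 16.0% were lower and 17.7% higher in that test. With no water library at 18 h, longer EGF and longer time in culture cannot be told apart. All 32 were lower at 18 h, on the log2(FPKM + 1) scale, with adjusted p from 0.00121 to 0.0496. In the outer ring the difference was −0.42 for Nup160, −0.32 for Seh1l, −0.30 for Nup107 and for Nup37, −0.28 for Nup43 and −0.21 for Nup85. In the inner ring it was −0.23 for Nup35 and −0.12 for Nup155 and for Nup205. In the membrane group it was −0.31 for Ndc1 and −0.13 for Aaas, in the channel −0.27 for Nupl1, in the filaments −0.20 for Nup214 and −0.13 for Ranbp2, and in the basket −0.23 for Nup153 and −0.20 for Nup50. In the Ran cycle it was −0.33 for Rcc1, −0.14 for Rangap1 and −0.11 for Ranbp1. Importin alpha adaptors gave −0.29 for Kpna3, −0.18 for Kpna1 and −0.15 for Kpna2. The importin beta family gave −0.28 for Ipo7, −0.18 for Ipo9 and for Ipo11, −0.17 for Kpnb1 and −0.11 for Tnpo1. Exportins gave −0.25 for Cse1l, −0.19 for Xpo4 and for Xpo6, −0.18 for Xpo1 and −0.15 for Xpot. Of the 32, 15 passed under all 17 alternatives.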

How the results depend on the processing

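Counts of members called, out of 53, changed with the scaling, the threshold and the libraries used. For EGFR against Neo in water, 3 higher became 1 with no filter, with common-sum scaling, with no variance trend and with the replicate block, 5 with median-ratio scaling, 6 with protein-coding genes alone at a common sum, and 0 with only the 2 groups or a threshold of 0.01; 1 lower became 0 with common-sum scaling, the replicate block, the 2 groups or 0.01. At 3 h against water, 14 higher became 22 with median-ratio scaling, 30 with protein-coding genes alone at a common sum and 5 at 0.01, and 3 lower became 0 with common-sum scaling and 1 with the 2 groups or 0.01. At 18 h against water, 3 higher became 1 with no filter, the replicate block or 0.01 and 6 with protein-coding genes alone at a common sum, and 17 lower became 6 with common-sum scaling and 8 at 0.01. At 18 h against 3 h, 32 lower became 15 at 0.01. Leaving out 1 library gave 0 to 3 higher and 0 to 1 lower for EGFR against Neo, 4 to 15 higher and 1 to 5 lower at 3 h, 1 to 2 higher and 7 to 17 lower at 18 h, and 0 higher and 17 to 32 lower at 18 h against 3 h. Where a member count fell, the count over all genes fell in most of these fits too. With groups down to 1 library, the lone library is assumed to vary like the others. The cause of these shifts was not tested.

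No named member changed sign at a call. Over all 53 members, 3274 of 3600 fits under alternatives stayed on their side of the threshold, 267 lost the call and 59 gained one, 37 of these at 3 h against water. Deviations from the group means correlated only weakly between libraries with the same replicate number (from −0.182 to 0.128). With 2 libraries a group this cannot show whether the numbers pair samples by culture or day, which the labels do not state. With the number as a block, 15 members were higher (10.7% of all genes) and 3 lower (17.7%) at 3 h. In that fit 15 were lower at 18 h (17.3%), and 29 lower at 18 h against 3 h (14.5%). With 2 libraries a group, changes below about the sizes called here could not be shown, and depth is known only by estimate.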

Other observations

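Genes of the nuclear lamina and envelope, which surround the pores, split by gene. Of 16 measured of 17, 1 was higher and 3 lower at 3 h of EGF against water (11.8% and 19.7% of all genes), 2 higher and 5 lower at 18 h (13.2% and 18.7%), and 4 higher and 4 lower at 18 h against 3 h (17.7% and 16.0%). Lmnb2, lamin B2, was below water at both times, by 0.31 at 3 h and 0.43 at 18 h (adjusted p = 8.66e-04 and 1.21e-04 by limma), and Lmnb1 and Tmpo by 0.31 each at 18 h. Sun2, which links the lamina to the cytoskeleton, was 0.34 below water at 3 h and 0.51 higher at 18 h than at 3 h (0.00113 and 2.45e-04). These calls passed under all 17 alternatives. So did those on Sun1 at 3 h and on Lbr, Lemd2 and Tmpo at 18 h against 3 h. The rest of the calls counted here failed under at least 1 alternative.

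Of 11 measured of 12 growth genes of the MYC type, 4 were higher at 3 h against water (11.8% of all genes), 2 lower at 18 h (18.7%) and 7 lower at 18 h than at 3 h (16.0%). Polr1b, a subunit of RNA polymerase I, Nop58, a nucleolar protein, and Nolc1 were lower at 18 h than at 3 h by 0.30, 0.29 and 0.24 (adjusted p = 0.0014, 0.00353 and 0.00267 by limma), under all 17 alternatives. The other calls at 18 h against 3 h failed under at least 1 alternative. The 4 higher at 3 h all failed without either EGFR water library, and the 2 lower at 18 h against water failed with common-sum scaling.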
